A study of Mus musculus with 12 samples.

Results

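At 1 locus of mouse chromosome 5, near-identical copies of 1 gene stand in a row, and their transcripts were measured in C2C12 myotube cultures. The family was defined by 8 gene names, Gm21698, Gm1979, Gm21663, Gm21680, Gm21671, 5031410I06Rik, Gm10220 and Gm7347. Of these, 5 had values (Gm21698, Gm1979, Gm21663, Gm21680 and Gm21671), out of 27942 genes in all. The other 3 names, 5031410I06Rik, Gm10220 and Gm7347, were not analysed here as expression values, and they enter only through their reference sequences. The 5 with values were selected on the adjusted p of the comparison of treated with untreated cells described here. Their differences in that comparison are therefore given as a description and carry no test.

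C2C12 is a mouse myoblast line that withdraws from the cell cycle and fuses into myotubes when serum is lowered. The cells were grown to 80% density in 10% fetal bovine serum and then held in 2% horse serum for 7 days. The OI group (3 libraries) received 25 µmol/L of 4-octyl itaconate (OI), a cell-permeable itaconate ester used as an activator of the stress-response factor NRF2. The control group (3 libraries) differentiated in the same medium untreated, and both groups came from the one cell line. The labels do not say whether the libraries of a group came from separate cultures, so the spread between them may be technical. A second set of 3 OI and 3 control samples was not analysed here.

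The genes carry the Takusan domain in the Pfam annotation that the authors deposited with the values. Takusan genes are a rodent-specific family that multiplied by local duplication, and the best studied of them, alpha-takusan on mouse chromosome 14, is known from neurons, where its protein binds the postsynaptic scaffold PSD-95. Genes of the same domain on chromosome 5 include the Speer genes, named for their expression in spermatogenesis. Because duplicated copies share most of their sequence, short reads often match several of them equally well, and the value of a single copy then depends on how such reads were assigned.

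Library sizes recovered from the values ran from 25684000 to 36274000 reads or fragments in OI and from 24441000 to 30522000 in control. Control replicate 1 stood apart: the genes analysed took 23.9% of its reads, against 5.33% to 5.77% in the OI libraries and 5.25% to 5.33% in control replicates 2 and 3. The rRNA-derived RNA AY036118 was at 780 to 2450 FPKM in OI and at 692 to 70760 FPKM in control, the highest in control replicate 1. Of 21 skeletal muscle markers, 2 had values, Tnnc1, a troponin subunit of slow muscle, and H19, a non-coding RNA of developing muscle, and neither was at 0 in any library. Their summed level was 47.8 to 55.1 FPKM in OI and 241 to 276 FPKM in control. No marker of male germ cells (15 genes), fibroblasts (6 genes) or adipocytes (5 genes) was among the genes analysed. The part that the lower muscle markers or any other change in cell make-up had in the results that follow was not tested, and in these bulk cultures fewer cells of a type and less RNA per cell cannot be told apart.

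In the reference annotation the copies lie in 1 array of 12 genes, all on the minus strand, that spans 201790 bases (chr5:25919632-26121421, GRCm38). Gm5862, Speer4a and Gm10471 are counted in it by position and strand only, and their sequences were not compared with the others. Of the 12, 6 had values. They are Gm21655, Gm21663, Gm21671, Gm21680, Gm21698 and Gm1979, which stand next to each other at the low-coordinate end. The other 6, Gm5862, Speer4a, Gm7347, Gm10471, 5031410I06Rik and Gm10220, were not analysed here. Neighbouring starts lay 12036 to 30710 bases apart, with a median of 16148 bases. Gm21655 is annotated as a processed transcript with no coding sequence, and it is not one of the 8 named genes. Between the copies lie 3 processed pseudogenes on the plus strand, Gm21168, Gm5067 and Gm6089.

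**Figure D1:**
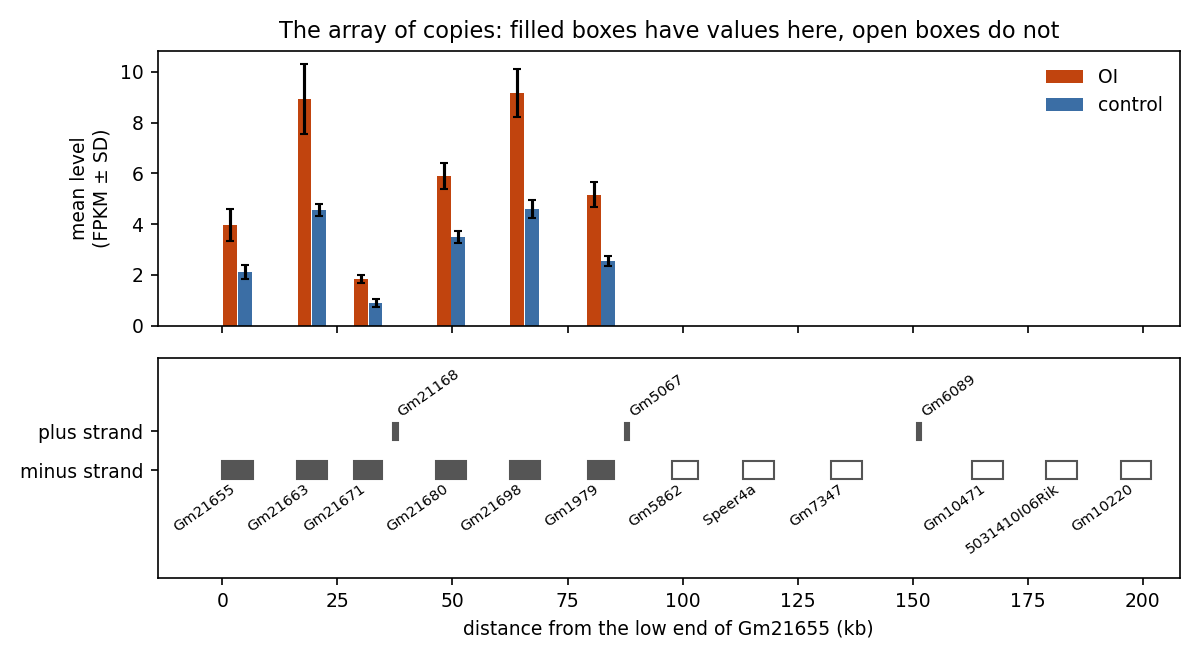
The array drawn by distance in kilobases from the low-coordinate end of Gm21655, with the mean FPKM (bars, ± SD over 3 libraries) of each minus-strand copy that had values in OI and in control. All 6 measured copies had a higher mean in OI, and the 6 open boxes were not analysed.

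The 8 genes share 1 exon structure. Each has 5 exons, of which exons 2, 3 and 4 are 160, 144 and 184 bases long in every copy and exon 1 is 210 to 214 bases. The coding sequence is 804 bases (267 codons and a stop) in all 8. The copies differ mainly in the length of the last exon, which runs from 1327 bases in Gm1979 to 2297 bases in Gm21698, Gm7347 and 5031410I06Rik, so that the longest transcripts range from 2025 to 2995 bases.

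Over the 28 pairs of the 8 genes, the longest transcripts were 94.5% to 99.8% identical. Gm21663 and Gm21698 differed at 9 aligned bases (99.7% identity), and both differed as little from 5031410I06Rik (99.8% and 99.7%), which was not measured. Gm21680 stood furthest from the rest, at 94.5% to 95.4%. Its closest relative was Gm21655, outside the 8, from which it differed at 14 bases (99.5%). Gm1979 was closest to Gm10220 (98.8%), while Gm21671 and Gm7347 had no such close partner, with identities of at most 97.8% for Gm21671 and 98.5% for Gm7347. Of the 804 coding positions, 45 (5.60%) varied among the 8 genes. Of the 2013 positions present in all 8 transcripts, coding ones included, 157 (7.80%) varied. Bases that any of the 8 transcripts lacks are not in that count.

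**Figure D2:**
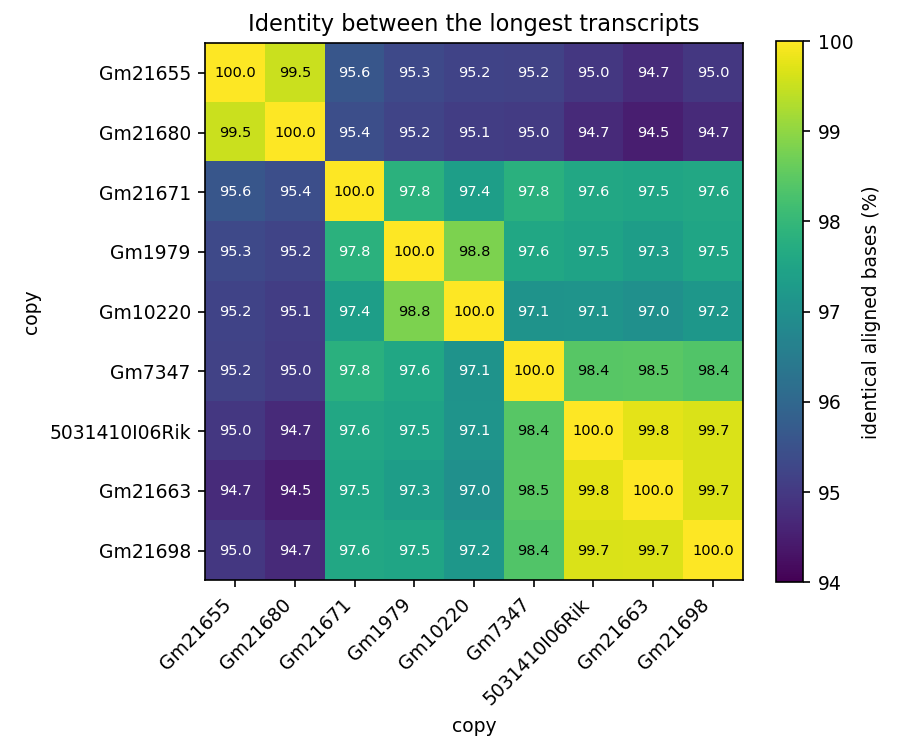
Identity in percent of aligned bases between the longest transcripts of the 8 named genes and Gm21655, with darker cells for lower identity. Gm21655 with Gm21680, Gm1979 with Gm10220, and 5031410I06Rik with Gm21663 and Gm21698 stand out as the closest groups.

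The stretch of 90 coding bases with the most variable positions (11) shows how little separates the copies. It covers the last 61 bases of exon 1 and the first 29 bases of exon 2, and in Gm21698 these lie at chr5:25988441-25988501 and chr5:25987419-25987447 (GRCm38, minus strand). In Gm21680 they lie at chr5:25972450-25972510 and chr5:25971430-25971458, and in Gm21671 at chr5:25954206-25954266 and chr5:25953185-25953213. The sequences are those of the GENCODE M21 transcripts, 5′ to 3′, and a capital marks a base that is not the most frequent one at its position among the 8 genes (the alphabetically first base where frequencies tie).
Gm21698: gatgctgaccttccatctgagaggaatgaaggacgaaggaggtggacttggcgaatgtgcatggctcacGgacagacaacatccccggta
5031410I06Rik: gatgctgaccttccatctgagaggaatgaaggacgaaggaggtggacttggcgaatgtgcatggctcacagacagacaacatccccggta
Gm21663: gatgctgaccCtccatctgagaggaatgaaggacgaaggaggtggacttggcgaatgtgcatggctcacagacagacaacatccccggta
Gm7347: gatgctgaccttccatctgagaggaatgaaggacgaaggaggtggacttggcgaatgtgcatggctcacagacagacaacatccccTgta
Gm10220: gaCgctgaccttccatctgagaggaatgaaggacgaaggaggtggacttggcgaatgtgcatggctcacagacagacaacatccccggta
Gm21680: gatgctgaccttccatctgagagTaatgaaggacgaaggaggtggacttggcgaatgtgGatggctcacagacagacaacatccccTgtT
Gm1979: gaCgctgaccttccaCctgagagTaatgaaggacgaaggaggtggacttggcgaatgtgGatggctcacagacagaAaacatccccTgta
Gm21671: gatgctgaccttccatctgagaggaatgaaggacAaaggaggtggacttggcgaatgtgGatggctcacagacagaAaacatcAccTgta
In this most variable stretch 5031410I06Rik has no such base, Gm21698, Gm21663, Gm7347 and Gm10220 have 1 each, Gm21680 has 4, Gm21671 has 5 and Gm1979 has 6. A read from here that covers no capital cannot tell Gm21698 from 5031410I06Rik.

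The same point was counted over whole transcripts as the share of 50-base stretches found in no annotated transcript of another gene. It was 4.62% for Gm21698, 7.11% for Gm21663, 8.55% for Gm1979, 11.2% for Gm21680 and 28.7% for Gm21671. With 100-base stretches it was 11.9% for Gm21698, 12.7% for Gm21663, 31.8% for Gm1979, 29.5% for Gm21680 and 54.3% for Gm21671. Of the 50-base stretches of Gm21698, 87.4% also occur in 5031410I06Rik, and of those of Gm21663, 88.7% do. Gm21680 shares 81.5% of its 50-base stretches with Gm21655, and Gm1979 shares 62.8% with Gm10220. Of the 5, Gm21671 thus has the largest share of sequence of its own, and Gm21698 and Gm21663 the smallest. The sources used here do not say how reads with several matches were treated, so the single values of these genes are uncertain. For the 3 genes with 1 annotated transcript (Gm21663, Gm21671 and Gm21680), the read numbers recovered from FPKM were whole within 0.01 in every library.

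The starts of the genes are as alike as their transcripts. RefSeq promoter windows (GRCm38.p6), from 250 bases before to 50 bases after the annotated start, were found for all 8 genes and were 95.9% to 100% identical over their aligned parts. The 250 bases before the start are shown for Gm21698, the copy with the highest level (chr5:25988651-25988900, minus strand), and for Gm21680, the most divergent of the 8 (chr5:25972646-25972895, minus strand), 5′ to 3′ with the CCAAT motif in capitals.
Gm21698: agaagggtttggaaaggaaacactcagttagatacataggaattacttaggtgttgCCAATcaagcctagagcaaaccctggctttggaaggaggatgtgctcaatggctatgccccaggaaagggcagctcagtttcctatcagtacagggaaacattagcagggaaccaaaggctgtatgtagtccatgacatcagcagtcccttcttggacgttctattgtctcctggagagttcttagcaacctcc
Gm21680: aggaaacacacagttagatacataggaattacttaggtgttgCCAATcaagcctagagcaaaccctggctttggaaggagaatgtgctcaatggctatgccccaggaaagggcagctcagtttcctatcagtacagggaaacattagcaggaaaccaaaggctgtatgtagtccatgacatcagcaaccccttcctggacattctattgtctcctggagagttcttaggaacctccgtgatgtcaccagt
CCAAT, read on both strands, occurs once in each of the 8 windows, and in 37.4% of the 32851 RefSeq mouse promoters of the same length. In 6 genes it lies upstream of the annotated start, as in the sequences shown. In Gm21671 and Gm1979 RefSeq places the start at the first coding base, and the match in their windows is a different one, after that start. No window holds TGACNNNGC, the core of the antioxidant response element that NRF2 binds (12.4% of all promoters), the E-box CAGCTG (16.3%), any E-box CANNTG (72.3%), TATAAA (13.6%) or GGGCGG (35.7%). CAGCTG is 1 form of CANNTG, so those counts overlap. The 8 windows are copies of 1 sequence and count as 1 observation, and absence of these letters from 300 bases says nothing about whether a factor acts on the genes.

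All 5 measured members had higher levels in every OI library than in any control library, with means 1.69 to 2.1 times those of control. Over the 1737 genes tested (those at 1 FPKM or above in 3 or more libraries), every OI library was above every control library in 11.1%. A limma fit on log2(FPKM + 1) called 2.76% of these genes at an adjusted p under 0.05, and 1.15% as higher in OI. All 5 members are among the genes called higher, as their selection requires, and nothing further is read from that count. All 5 passed the filter on low values, Gm21671 only through its OI libraries, since 2 of its 3 control values were below 1 FPKM.

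Gm21698 (ENSMUSG00000096045, chr5:25982030-25988650) was at 8.10, 9.97 and 9.42 FPKM in OI replicates 1 to 3, against 4.66, 4.93 and 4.22 FPKM in control replicates 1 to 3. The lowest OI library was above the highest control library. The means were 9.16 ± 0.96 FPKM in OI and 4.60 ± 0.36 FPKM in control (SD, n = 3 each), a log2 difference of 0.86 ± 0.10 (SE) after adding 1 to each FPKM, a step that shrinks the differences of genes with low levels.

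Gm21663 (ENSMUSG00000104824, chr5:25935791-25942381), the near-twin of Gm21698, followed the same levels. It was at 7.33, 9.77 and 9.68 FPKM in OI, against 4.37, 4.46 and 4.83 FPKM in control. OI replicate 1 was the lowest OI library for both genes, and the groups did not overlap. The log2 difference of Gm21663 was 0.83 ± 0.12 (SE).

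Gm21680 (ENSMUSG00000106627, chr5:25965961-25972663), the divergent copy, was at 5.46, 6.48 and 5.76 FPKM in OI, against 3.47, 3.27 and 3.75 FPKM in control. Its ratio of means, 1.69, was the smallest of the 5. The log2 difference was 0.62 ± 0.09 (SE).

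Gm1979 (ENSMUSG00000091049, chr5:25999022-26004798), the copy with the shortest last exon, was at 4.61, 5.35 and 5.54 FPKM in OI, against 2.75, 2.56 and 2.37 FPKM in control. The groups did not overlap, and its ratio of means was 2.02. The log2 difference was 0.79 ± 0.09 (SE).

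Gm21671 (ENSMUSG00000095550, chr5:25948253-25954417), the copy with the most sequence of its own, had the lowest level. It was at 1.81, 2.00 and 1.71 FPKM in OI, against 1.03, 0.88 and 0.72 FPKM in control. These values rest on 141, 176 and 106 recovered reads in OI and on 61, 65 and 52 in control. The ratio of means, 2.1, was the largest of the 5, while the log2 difference with 1 added to each value was the smallest, 0.60 ± 0.11 (SE). With a pseudocount of 5 it was 0.22, and on recovered read numbers, a fit chosen after seeing the data, 1.10.

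**Figure D3:**
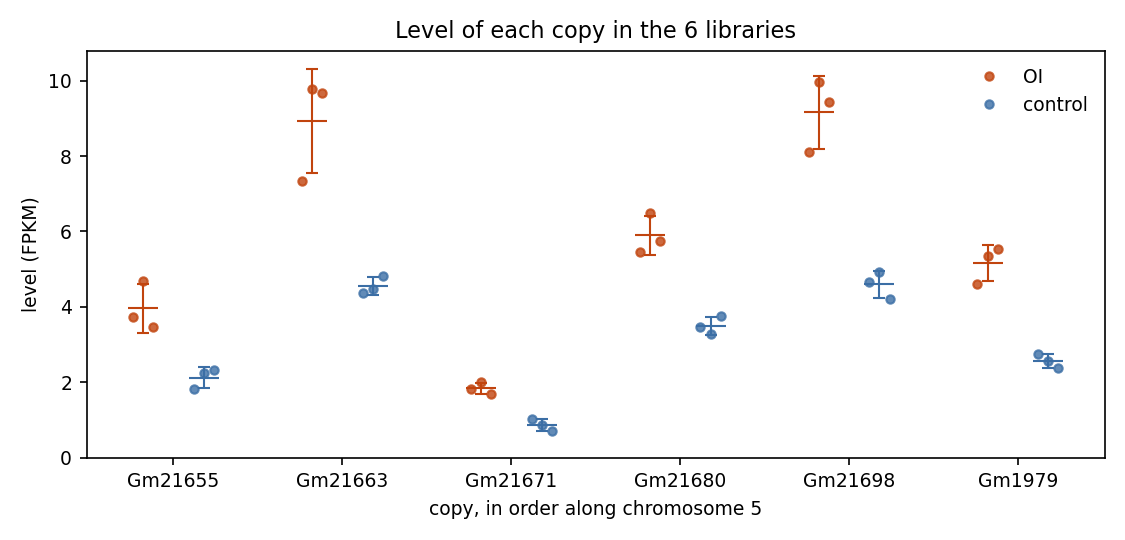
FPKM of each measured copy in the 6 libraries (points), with the mean and SD of the 3 OI and the 3 control libraries, in order along the chromosome. In none of the 6 genes do the OI points overlap the control points.

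Near the limma adjusted p threshold of 0.05, Gm21671 was just inside (0.0424), as its selection required. Gm21655, the sister of Gm21680 that the rule did not name, was just outside (0.0579). Gm21655 (chr5:25919632-25926290) was at 3.75, 4.68 and 3.46 FPKM in OI, against 1.82, 2.25 and 2.32 FPKM in control. The groups did not overlap here either, and the log2 difference was 0.66 ± 0.13 (SE). Since most of its sequence also occurs in Gm21680, it is not counted as a separate measurement. How far the values of these 2 genes rest on the same reads was not tested. It passed the threshold in 2 of the 15 alternative fits, with robust=TRUE (limma adjusted p = 0.0474) and with limma voom on recovered reads (0.0333), and over all 15 the adjusted p ran from 0.0333 to 0.23.

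The order of the levels was the same in both groups: Gm21698, Gm21663, Gm21680, Gm1979, Gm21655 and Gm21671, from high to low. Gm21698 and Gm21663 did not differ beyond their spread, with Gm21698 above in 2 of 3 libraries in OI and in 2 of 3 in control. In OI the ranges of Gm21680 and Gm1979 overlapped, as did those of Gm1979 and Gm21655, although the first of each pair was above in 3 of 3 libraries. In control no neighbours below Gm21663 overlapped. FPKM is scaled to gene length, but the order still depends on how shared reads were assigned among the copies.

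Summed over the 5 members, a value that depends little on how reads were divided among them, the level was 27.3, 33.6 and 32.1 FPKM in OI, against 16.3, 16.1 and 15.9 FPKM in control. The control libraries lay close together, control replicate 1 included, while OI replicate 1 was below OI replicates 2 and 3. The means were 31.0 ± 3.27 FPKM in OI and 16.1 ± 0.19 FPKM in control (SD, n = 3 each), a ratio of 1.93. Reads that also match the unmeasured copies still enter this sum, and a read counted for several members would enter it more than once. The recovered reads behind it numbered 2416, 3365 and 2271 in OI, and 1096, 1361 and 1325 in control.

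The division of those reads among the copies differed little between the groups. Gm21698 took 32.1% ± 0.17 in OI and 31.0% ± 2.27 in control, and Gm21663 took 29.8% ± 1.76 in OI and 29.3% ± 1.79 in control (SD, n = 3 each). The ranges of the groups overlapped for Gm21698, Gm21663, Gm1979 (11.7% to 12.7% in OI, 10.9% to 12.4% in control) and Gm21671 (4.67% to 5.84% in OI, 3.93% to 5.57% in control). Gm21680 alone of the 5 had shares that did not overlap, at 21.6%, 20.8% and 19.4% in OI replicates 1 to 3, against 23.0%, 21.8% and 25.3% in control replicates 1 to 3. The gap between the highest OI and the lowest control share was small beside the range within control.

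**Figure D4:**
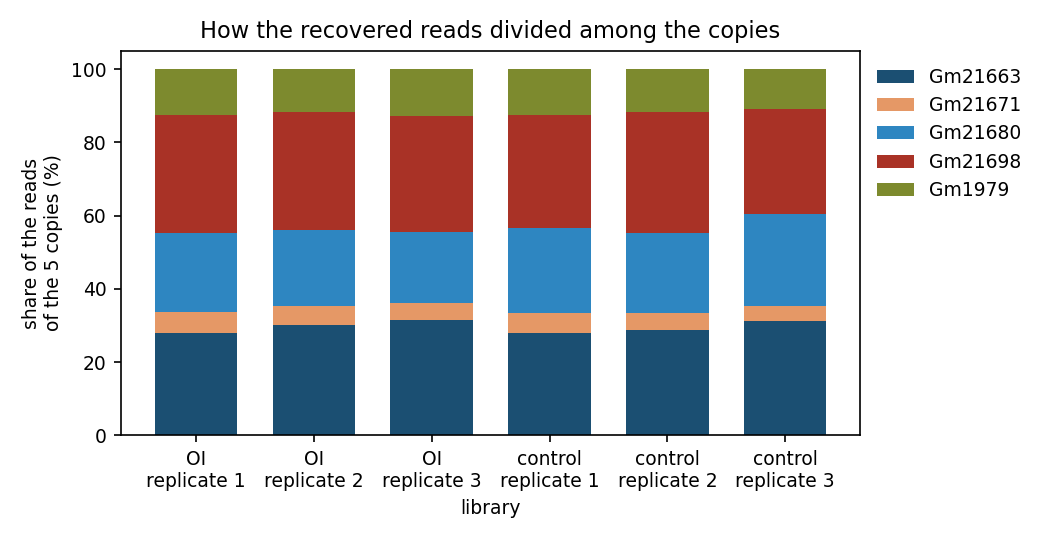
Share in percent of the recovered reads of the 5 members that each copy took, per library, with the 3 OI libraries left of the 3 control libraries. The stacks are alike in all 6 libraries, and the share of Gm21680 is between 19.4% and 21.6% in OI and between 21.8% and 25.3% in control.

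Genes with a Takusan domain elsewhere were mostly listed at 0 in these cells. Of 202 such genes besides the 5 members, 179 lie on chromosome 14 and 23 on chromosome 5. In all 6 libraries, 173 were listed at 0 and 199 stayed under 1 FPKM. By the mean over all 6 libraries, OI included, the 5 members and Gm21655 held 6 of the 7 highest levels of the 207 genes. In control alone, Gm21671 (mean 0.876 FPKM) was below Gm5624 of chromosome 14 (0.882 FPKM). There Gm6650 (mean 2.93 FPKM) was above Gm1979 (2.56 FPKM) and Gm21655 (2.13 FPKM). The members alone held 76.3% to 79.0% of the summed FPKM of these 207 genes in OI and 62.4% to 71.4% in control. Array genes without values are not in that sum. The members were chosen on this comparison and were higher in OI, so nothing is read from these ranks or from their larger share in OI. The exception among the leading 7 was Gm6650, a Takusan pseudogene elsewhere on chromosome 5, at 1.27, 1.71 and 2.41 FPKM in OI and 2.07, 3.15 and 3.58 FPKM in control. Its groups overlapped, and its log2 difference of -0.49 ± 0.21 (SE) did not pass (limma adjusted p = 0.294).

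Outside the array, the 201 Takusan genes other than the members and Gm21655 summed to 4.75, 4.81 and 5.10 FPKM in OI, against 4.70, 6.90 and 7.24 FPKM in control. Of these sums, Gm6650 alone made 1.27, 1.71 and 2.41 FPKM in OI and 2.07, 3.15 and 3.58 FPKM in control. The means of the sums were 4.89 ± 0.19 FPKM in OI and 6.28 ± 1.38 FPKM in control (SD, n = 3 each). All 3 OI sums were above control replicate 1, the library that stood apart, and below control replicates 2 and 3, so the groups overlapped. An exact permutation test of the 3 OI against the 3 control sums gave p = 0.4, and with so few libraries it cannot go below p = 0.1.

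Among relatives and neighbours outside the 8 names, none was called. The lists were genes with a Speer symbol (7 with values), genes between 25 and 27 Mb of chromosome 5 (19) and genes with a transcript at least 80% identical to a member over 50% or more of its length (20). Together they held 42 genes, of which 39 were under 1 FPKM in every library and 3 were tested, with 0 called by limma, 2 (Gm21655 and Gm5067) at an unadjusted p under 0.05, and 1 (Gm21655) called by limma voom on recovered reads. Of all genes tested, 17.8% had an unadjusted p under 0.05. Gm21655 shares most of its sequence with a member and Gm5067 passed the filter only through OI, so nothing is read from that count. The 7 genes with a Speer symbol reached at most 0.144 FPKM, in the antisense RNA Speer4cos. Speer4a, the Speer gene of the array, was not analysed.

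Besides Gm21655, the tested neighbours were Gm5067 and 1700096K18Rik. Gm5067, a processed pseudogene between Gm1979 and Gm5862 on the opposite strand, was at 1.42, 2.21 and 1.20 FPKM in OI, against 0.24, 0.78 and 0.53 FPKM in control. It rests on 31 to 81 reads in OI and 6 to 24 in control, and did not pass the test (log2 difference 0.78 ± 0.20, limma adjusted p = 0.121). The other pseudogenes between the copies, Gm21168 and Gm6089, averaged 0.73 ± 0.16 and 0.69 ± 0.15 FPKM in OI, and 0.44 ± 0.18 and 0.33 ± 0.18 FPKM in control (SD, n = 3 each), and were too low to be tested. 1700096K18Rik, outside the array, was at 0.72 to 1.37 FPKM in OI and 1.01 to 1.40 FPKM in control, with a log2 difference of -0.16 ± 0.15 (limma adjusted p = 0.654).

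**Figure D5:**
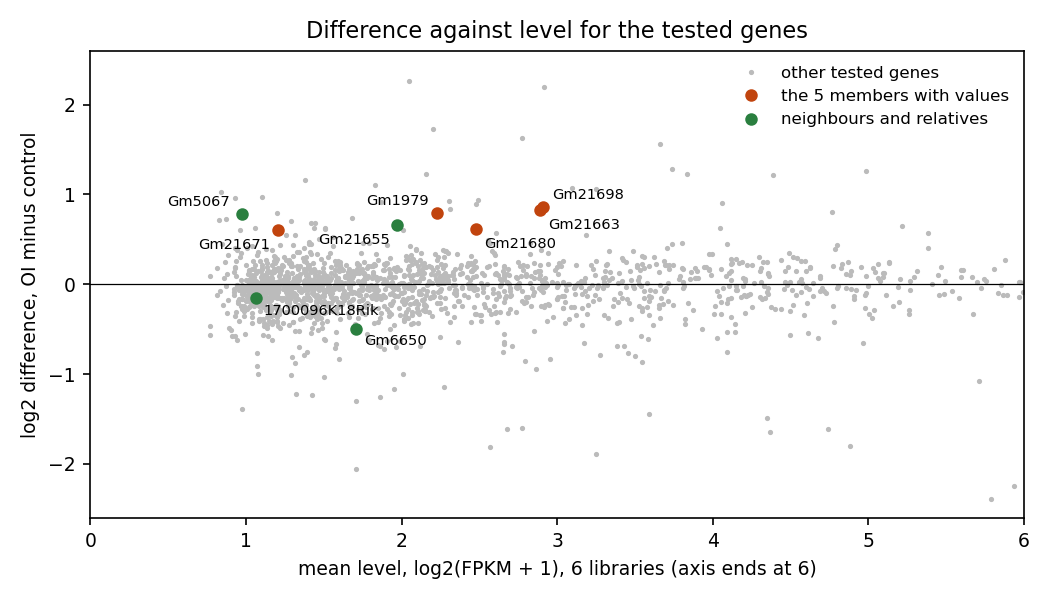
Log2 difference (OI minus control) against the mean log2(FPKM + 1) over 6 libraries for the genes tested, with the 5 members, and the neighbours and relatives named in the text, marked. The members lie between 0.60 and 0.86, above most genes of their level, a position that their selection on this comparison favours. Another 70 genes with a mean above 6 are beyond the axis.

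Among all genes tested, the 5 members ranked from 24 (Gm21698) to 51 (Gm21671) by the size of a higher level in OI. They were chosen on this comparison, which favours high ranks, so nothing is read from these ranks. The non-member genes whose pattern over the 6 libraries was most like the mean of the members, by Pearson's r of log2(FPKM + 1), were Gm26527 (r = 0.989), a long intergenic RNA on chromosome 13, Gm6644 (0.989), a processed pseudogene on chromosome 1, and Gm17046 (0.984), a processed pseudogene on chromosome 14. Gm6644 averaged 5.82 ± 0.57 FPKM in OI and 2.59 ± 0.20 FPKM in control, and Gm17046 averaged 2.36 ± 0.05 FPKM in OI and 1.18 ± 0.09 FPKM in control, while Gm26527 averaged 22.2 ± 0.68 FPKM in OI and 19.97 ± 0.05 FPKM in control (SD, n = 3 each). Gm17046 lies on the plus strand within the span of Gm8237, a minus-strand Takusan gene listed at 0 in all 6 libraries. The 6 points behind each r share their libraries with the members and fall into 2 groups, so these r values are a description.

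The members' calls changed with the library left out. These calls repeat the test on which the members were chosen, so they are a description. In fits that left out 1 library, between 0 and 3 of the 5 passed the limma threshold. None passed without OI replicate 2 or without OI replicate 3, and 3 passed without OI replicate 1, while 2, 1 and 2 passed without control replicates 1, 2 and 3. Leaving out 1 library could not reverse the direction, because in each member every OI library was above every control library. Over these fits the log2 differences ran from 0.54 to 0.95. Without control replicate 1, the library that stood apart, the log2 difference of the summed level was 0.91, beside 0.90 with all 6 libraries.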

How the data were processed

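RNA was measured by RNA-seq in 3 OI and 3 control libraries of C2C12 cells. Per the labels' protocols, libraries were made with a TruSeq kit from total RNA. The submitters' processing notes name StringTie 1.3.3b, HISAT2 2.1.0, cutadapt 2.7 and the genome build mm10. The authors deposited FPKM per gene (fragments relative to gene length and to the total of the library). The sources used here do not state the strand setting or the handling of reads with several matches. The 6 tables hold the same 27943 rows, and 1 broken row was left out. No 2 libraries held equal values.

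Library sizes and read numbers were recovered from FPKM times gene length, which fell within 0.01 of whole numbers for 99.97% to 100% of values in genes of 1 exon; for Gm21698 and Gm1979, with 2 annotated transcripts each, they are approximate. Genes with 1 FPKM or more in at least 3 of 6 libraries (1737) were tested with limma 3.58.1 (R 4.3.3, trend=TRUE) on log2(FPKM + 1), two-sided, adjusted by Benjamini-Hochberg over these genes, with a threshold of 0.05. Replicate numbers are not said to pair the libraries and were not used in the fit.

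The members and gene lists were chosen with earlier results of these data known. Named genes were all members, the tested genes among relatives and neighbours, the 3 tested genes most correlated with the members' mean, and the genes next to the threshold. Gm6650 was named by its Takusan domain, and AY036118, Gm21168 and Gm6089 after their values were seen. Transcripts and positions came from GENCODE M21 (GRCm38, which is mm10) and promoters from RefSeq (GRCm38.p6). Identity was computed with Biopython 1.88 (end gaps free), the multiple alignment with MAFFT 7.526 and the search for relatives with BLAST+ 2.17.0. Python 3.11.15 with pandas 2.3.3 and Matplotlib 3.10.9 served for tables and plots. As alternatives, the fit was run with a pseudocount of 0.1 or 5, without a filter, with a 5 FPKM filter, with median-of-ratios or quantile scaling, with trend=FALSE, with robust=TRUE, with the replicate block and without each library in turn. A limma voom fit on recovered reads and a sum with Gm21655 were added after seeing the data.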

Additional observations from a re-analysis of the deposited data

How the results depend on the processing

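Under the alternatives run for it, the summed level of the members had log2 differences from 0.84 to 0.99 beside 0.90. The log2 difference of each member was positive in every fit run. The members were chosen on this comparison and their groups did not overlap. Their directions and calls in these fits are therefore a description. The number of all genes called, 48, was 14 with no filter and 17 with the replicate block, and 15 to 27 when 1 library was left out. No related gene outside the members was called, except Gm21655, the 1 gene called with robust=TRUE and with voom on recovered reads. Of the 5 members, 4 passed with a pseudocount of 0.1 (Gm21671 did not), 3 with a filter at 5 FPKM, where only 3 were tested, and 0 with no filter or with the replicate block. The numbers are not shown to pair the libraries: same-numbered OI and control libraries had correlations of 0.05, 0.14 and -0.08 in their deviations from the group means. The causes of these shifts were not tested. The median of all genes moved by less than 0.1 under both scalings. Both shared sequence and depth limit the members. Most 50-base stretches of each of the 5 members also occur in another gene. Gm21671 had the largest share of its own among them, 28.7%, and the fewest reads.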
